A study of Homo sapiens with 8 samples.

Results

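The genes of the plasminogen activator system were read across SW1990, an established line of pancreatic ductal carcinoma cells. The 6 members were taken by gene symbol from a table of 60483 genes: the activators PLAT and PLAU, the receptor PLAUR and the serpins SERPINE2, SERPINB2 and SERPINB8. All 6 passed the filter on low counts that left 16417 genes for the test. The 8 deposited samples are 4 RNA-seq libraries, each read on 2 lanes, and all are labelled as side population cells, the fraction that pumps out a DNA-binding dye. There were 2 control libraries and 2 libraries labelled as CRISPR knockdown of PAF1. PAF1, also called PD2, is a subunit of the complex that travels with RNA polymerase II during elongation. What the control cells received, and whether a group is 1 clone or several, was not given in the labels.

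Plasminogen activators are secreted serine proteases that cut the inactive precursor plasminogen into plasmin, a broad protease that dissolves fibrin and degrades extracellular matrix. PLAT (tissue-type activator, tPA) acts best on plasminogen bound to fibrin or to cell-surface proteins, whereas PLAU (urokinase, uPA) is held at the cell surface by PLAUR (uPAR). Serpins stop these proteases by a suicide mechanism in which the inhibitor is cut and stays bound, and the complexes are then cleared by endocytic receptors. Pancreatic carcinoma cells are known to make tPA, uPA and uPAR.

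The columns of the table name group and lane without a library number. In each group 1 library name begins with SP and 1 does not, so the libraries are called prefixed (SP-prefixed in the plots) and unprefixed. A pair is the control and the knockdown-labelled library with the same kind of name. Both prefixed names also hold P3, which the unprefixed names lack and the labels do not explain. Both knockdown-labelled names hold PD2_1. The sample titles write SP for side population on every sample, but only the prefixed library names hold these letters. Whether the unprefixed libraries are another cell fraction was not stated, so prefix and cell fraction cannot be told apart. The labels do not pair libraries, and CRISPR stands in every library name but that of the unprefixed control. Totals were 17234973 to 22348416 counts per library, and the 2 lanes of each library were close to sampling noise apart (chi-square over its degrees of freedom 1.008 to 1.032), so each library was counted as 1 sample. Over 11281 genes, the SD of the log2 difference between the prefixed control and each other library was 0.406 to 0.448. Among the other 3 libraries it was 0.237 between the knockdown-labelled libraries, 0.275 in the unprefixed pair and 0.394 between the unprefixed control and the prefixed knockdown-labelled library. Levels are given as CPM, the count of a gene scaled to a common library size. PAF1 mRNA had 55.2 CPM in the unprefixed and 43.9 CPM in the prefixed control, and 41.7 and 44.4 CPM in the knockdown-labelled libraries, so it did not separate the groups (log2 fold change -0.20 ± 0.16, SE; edgeR, Benjamini-Hochberg adjusted p = 0.659). Every direction below therefore rests on the labels. Of 9 ductal carcinoma markers, 8 had at least 1 CPM in every library, while CFTR had 0.0498 CPM in the prefixed control and 0 elsewhere. The summed ductal markers were 5717 to 6962 CPM in controls and 5582 to 5937 CPM in knockdown-labelled libraries. Over 7 fibroblast markers the sum was 36.4 to 45.6 and 39.3 to 43 CPM. Of these, 3 had at least 1 CPM in every library. COL1A1 was the highest of the list, at 29.8 to 37.9 and 33.9 to 37.7 CPM, with COL3A1 and DCN at 0. Over 6 leukocyte markers the sum was 1.25 to 2.91 and 0.316 to 1.39 CPM. Over 4 endothelial markers it was 26.2 to 29.2 and 23.8 to 29.8 CPM, and 2 of them had at least 1 CPM in every library. CDH5 was the highest of these, at 21.6 to 24.6 and 20.7 to 27.4 CPM. Over 8 acinar or islet markers the sum was 0.847 to 1.54 and 0.105 to 0.753 CPM, with CPA1, AMY2A, GCG and SST at 0. No leukocyte, acinar or islet marker had at least 1 CPM in every library. The leukocyte sum overlapped between the groups and the acinar and islet sum did not, and their part in the results was not tested.

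The 250 bases before the annotated start of the receptor and serpin genes are shown because AP-1, the FOS and JUN family of transcription factors, was read in the same libraries. RefSeq windows on GRCh38.p14 were found for 5 of the 6 members, 7 windows in all, since PLAU and SERPINE2 have 2 starts each. The window of PLAT is not analysed here. The letters TGANTCA, the AP-1 motif, were searched on both strands and are in capitals. The 3 windows with a match are shown, and 1 window of PLAU without one for comparison.
PLAUR, chr19:43670170-43670419, minus strand: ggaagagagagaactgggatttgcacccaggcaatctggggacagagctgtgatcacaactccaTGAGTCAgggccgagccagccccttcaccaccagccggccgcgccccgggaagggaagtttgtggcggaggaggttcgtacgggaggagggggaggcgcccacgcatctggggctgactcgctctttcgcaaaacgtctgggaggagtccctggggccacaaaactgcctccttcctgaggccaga
SERPINB2, chr18:63887455-63887704, plus strand: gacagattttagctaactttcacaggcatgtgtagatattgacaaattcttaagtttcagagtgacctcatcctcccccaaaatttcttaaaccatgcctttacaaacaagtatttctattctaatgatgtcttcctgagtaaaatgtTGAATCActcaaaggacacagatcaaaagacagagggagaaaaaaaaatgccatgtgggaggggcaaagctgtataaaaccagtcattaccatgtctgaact
SERPINB8, chr18:63969831-63970080, plus strand: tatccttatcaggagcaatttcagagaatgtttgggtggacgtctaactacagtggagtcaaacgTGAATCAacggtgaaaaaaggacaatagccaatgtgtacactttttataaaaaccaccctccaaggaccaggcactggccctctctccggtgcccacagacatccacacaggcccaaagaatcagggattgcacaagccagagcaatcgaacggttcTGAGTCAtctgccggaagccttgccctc
PLAU, chr10:73910882-73911131, plus strand: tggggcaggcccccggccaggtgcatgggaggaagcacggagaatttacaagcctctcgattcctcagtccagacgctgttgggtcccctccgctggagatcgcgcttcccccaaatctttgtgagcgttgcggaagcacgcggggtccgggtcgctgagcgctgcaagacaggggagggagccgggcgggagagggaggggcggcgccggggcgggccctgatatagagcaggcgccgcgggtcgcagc
The match in PLAUR starts 186 bases before the gene start, that in SERPINB2 102 bases before it, and SERPINB8 has matches at 185 and 28 bases. No match was found in either window of PLAU or of SERPINE2. Of 35116 promoter windows of the same length, 6.57% hold these letters. The TATA box TATAAA was in the windows of SERPINB2, 30 bases before the start, and of SERPINB8, against 10.7% of all windows, and both hits in SERPINB8 overlap each other. The GC box GGGCGG was found in 1 window of PLAU (the one shown, with 3 hits) and in both of SERPINE2, against 42.6%. The ETS letters CCGGAA were found in SERPINB8, against 14.5%. The cAMP response element TGACGTCA (1.65%) and the TEAD letters GGAATG (11.9%) had no match. These are letters in a window, not measured binding sites.

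Among the 6 members, PLAT had the largest difference, a level 2.42-fold lower in the knockdown-labelled libraries, and SERPINE2 was the other member whose groups did not overlap. PLAU, PLAUR, SERPINB2 and SERPINB8 had overlapping groups. Over all genes tested, 44.7% had groups that did not overlap, so 2 of 6 is not above the background. No member passed the edgeR test without further terms after Benjamini-Hochberg adjustment over 16417 genes, and neither did any other gene (0 genes, percent called 0; lowest adjusted p = 0.174). At an unadjusted p under 0.05 this test had 1841 genes, or 11.2%, and 2 of the 6 members, PLAT and SERPINE2. With a term for the name prefix, edgeR called 320 genes, or 1.95%, and 1 member, PLAT. DESeq2 without that term called 236 genes, or 1.4%, and again PLAT of the members, and limma-voom called 0.

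**Figure D1:**
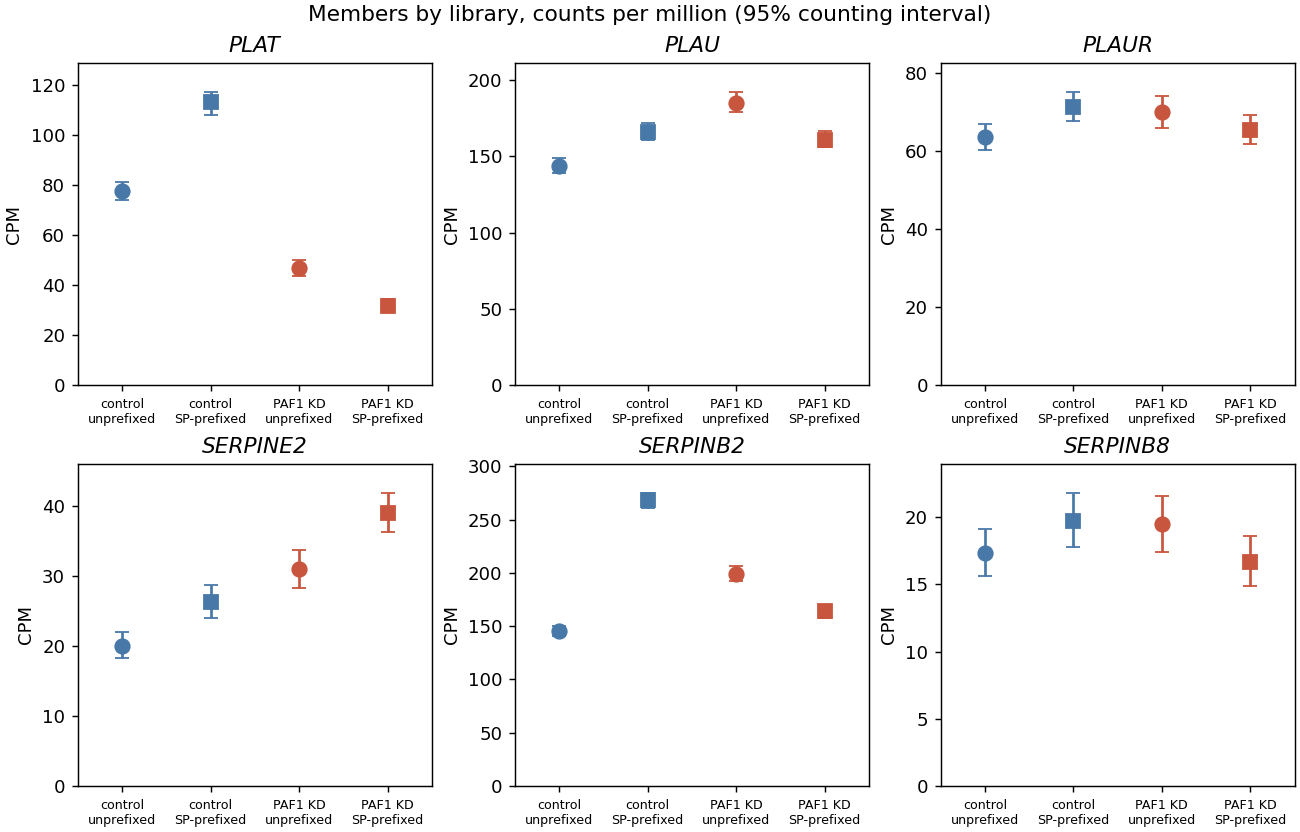
CPM (linear axis from 0) of the 6 members in each library, with 95% counting intervals that cover counting error alone; blue is control, red is labelled PAF1 knockdown, circles are unprefixed and squares prefixed libraries. PLAT lies at 77.6 and 113 CPM in controls against 46.8 and 31.8 CPM, SERPINE2 lies higher in both red libraries, and the groups of the other 4 genes overlap.

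Levels between genes were compared per length, in TPM, the counts divided by the gene lengths of the table and scaled to the same sum in each library. SERPINB2 mRNA was the most abundant member in every library (219 and 400.1 TPM in the controls, 301 and 243 TPM in the knockdown-labelled libraries, unprefixed first here and throughout). PLAU came second with 203 and 232 TPM, then 261 and 223 TPM. PLAUR stood at 59.1 to 65.6 TPM, so urokinase mRNA was 3.43 to 4 times that of its receptor in every library. PLAT had 48.7 and 69.8 TPM in the controls and 29.4 and 19.6 TPM in the other group. It was the third member in the prefixed control and the fourth, below PLAUR, in the other 3 libraries. SERPINB8 (13.6 to 16.2 TPM) and SERPINE2 (9.34 to 17.9 TPM) were the lowest. These exchanged places in the prefixed knockdown-labelled library, where SERPINE2 had 17.9 and SERPINB8 13.6 TPM. The ranges of SERPINB2 and PLAU over the libraries overlapped, though SERPINB2 was above PLAU within every library. The ranges of PLAUR and PLAT overlapped too, as did those of SERPINB8 and SERPINE2, and their order was not the same in every library. These 3 pairs of genes did not overlap with one another. PLAU, SERPINB2 and SERPINB8 share 916, 547 and 370 exonic bases with other genes, and their TPM use full lengths that include these bases. How reads on shared bases were counted, and its effect on these levels and ratios, was not tested.

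PLAT (ENSG00000104368.16, chromosome 8, 42175233 to 42207724, minus strand, GRCh38) stood at 77.6 CPM in the unprefixed control (95% exact Poisson interval 74 to 81.3) and at 113 CPM in the prefixed one (108 to 117). In the knockdown-labelled libraries it stood at 46.8 CPM, unprefixed (43.7 to 50.2), and 31.8 CPM, prefixed (29.3 to 34.5). Both controls were thus above both other libraries, and no counting intervals met. Group means were 95.1 ± 24.7 and 39.3 ± 10.6 CPM (SD, n = 2 per group). The log2 fold change was -1.27 ± 0.24 (SE, n = 2 per group; edgeR, adjusted p = 0.189), with a 95% interval of -1.85 to -0.70. By unadjusted p, PLAT ranked 101 of the 16417 genes. With the prefix term the same value, -1.27 ± 0.23, passed (edgeR, adjusted p = 0.0263), as 1.41% of all genes did in this direction. It passed also in DESeq2 (-1.26 ± 0.25, adjusted p = 0.000186), where 1.02% of genes were called lower. The difference was -0.73 on the log2 scale in the unprefixed and -1.82 in the prefixed pair. Without the unprefixed control it passed at -1.50 (edgeR, adjusted p = 0.00354, as 7.77% of genes did), and without the prefixed control it was -0.98 (adjusted p = 0.0516, where 1.23% of genes passed). In bulk RNA, fewer cells that make PLAT and less PLAT mRNA per cell cannot be told apart.

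**Figure D2:**
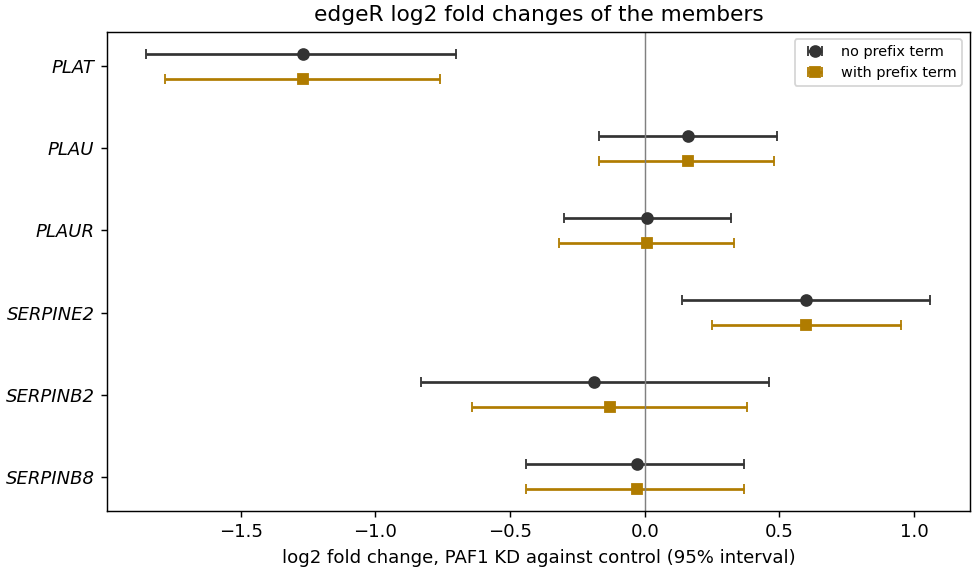
edgeR log2 fold changes (x axis) of the 6 members, knockdown-labelled libraries against controls, with unadjusted 95% intervals; black circles are the fit without and ochre squares the fit with a term for the name prefix. PLAT lies at -1.27 in both fits and SERPINE2 at 0.60 in both, and the intervals of the other 4 genes include 0.

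For PLAU and PLAUR, the urokinase arm, the groups overlapped and the intervals of the fold change included 0. PLAU (ENSG00000122861.14, chromosome 10, 73909177 to 73917497, plus strand) had 144 and 166 CPM in controls and then 185 and 161 CPM in the knockdown-labelled libraries. The unprefixed knockdown-labelled library was highest and the unprefixed control lowest, with the prefixed libraries between them. The log2 fold change was 0.16 ± 0.14 (SE, n = 2 per group; edgeR, adjusted p = 0.698). The 95% interval, -0.17 to 0.49, reaches from 1.13-fold lower to 1.4-fold higher. PLAU shares 916 exonic bases with C10orf55 on the opposite strand, which had 10 to 20 counts per library, against 3061 to 3338 for PLAU, and whether strand was used in counting is not stated.

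PLAUR (ENSG00000011422.10, chromosome 19, 43646095 to 43670547, minus strand) had the smallest ratio of its highest to its lowest library among the members. It had 63.5 and 71.2 CPM in controls and then 69.9 and 65.4 CPM in the knockdown-labelled libraries, a ratio of 1.12. The control values enclosed both others. Its log2 fold change was 0.01 ± 0.13 (SE, n = 2 per group; edgeR, adjusted p = 0.99), with a 95% interval of -0.30 to 0.32. The ratio of PLAT to PLAU mRNA in TPM, which uses both activators of 1 library, was 0.24 and 0.302 in the controls and 0.113 and 0.088 in the knockdown-labelled libraries. Both of the latter were below both controls, which follows the values of PLAT.

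SERPINE2 (ENSG00000135919.11, chromosome 2, 223975112 to 224039319, minus strand) encodes protease nexin 1, a secreted inhibitor of thrombin, urokinase and tPA. It had 20.01 CPM (18.2 to 21.9) and 26.2 CPM (24 to 28.6) in the controls, and 30.9 CPM (28.3 to 33.6) and 38.9 CPM (36.2 to 41.8) in the knockdown-labelled libraries. Both knockdown-labelled libraries were above both controls, but the counting intervals of the prefixed control and the unprefixed knockdown-labelled library met. The log2 fold change was 0.60 ± 0.19 (SE, n = 2 per group; edgeR, adjusted p = 0.345), 1.51-fold, with a 95% interval of 0.14 to 1.06. The pairs gave 0.62 and 0.57 on the log2 scale. SERPINE2 did not pass with the prefix term either (0.60 ± 0.16; edgeR, adjusted p = 0.093). Within each group the prefixed library was higher, by 0.39 in the controls and 0.33 in the knockdown-labelled libraries.

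SERPINB2 (ENSG00000197632.7, chromosome 18, 63871692 to 63903890, plus strand) encodes plasminogen activator inhibitor 2, which is kept largely inside the cell. It had 145 and 268 CPM in controls and then 199 and 164 CPM in the knockdown-labelled libraries. The controls were the lowest and the highest library, and both others lay between them. The log2 fold change was -0.19 ± 0.27 (SE, n = 2 per group; edgeR, adjusted p = 0.829). The pairs went opposite ways, 0.45 in the unprefixed and -0.71 in the prefixed pair. Without the prefixed control the value was 0.32 (edgeR, adjusted p = 0.375) and without the unprefixed control -0.55 (adjusted p = 0.0531). SERPINB2 shares 547 exonic bases with SERPINB10, which had 0 to 3 counts per library.

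SERPINB8 (ENSG00000166401.12, chromosome 18, 63969925 to 64005667, plus strand) is a clade B serpin known to inhibit the proprotein convertase furin rather than a plasminogen activator. It had 17.3 and 19.7 CPM in controls and then 19.5 and 16.7 CPM in the knockdown-labelled libraries, and all 4 counting intervals met. The log2 fold change was -0.03 ± 0.17 (SE, n = 2 per group; edgeR, adjusted p = 0.958), with a 95% interval of -0.44 to 0.37. SERPINB8 shares 370 exonic bases with HMSD, which had 0 to 1 counts per library. SERPINB2 and SERPINB8 lie near each other on chromosome 18. Their log2 differences within pairs had the same signs, 0.45 and 0.17 in the unprefixed pair and -0.71 and -0.24 in the prefixed pair. These signs were not particular to the neighbours. PLAU on chromosome 10 and PLAUR on chromosome 19 had 0.36 and 0.14 in the unprefixed and -0.04 and -0.12 in the prefixed pair.

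**Figure D3:**
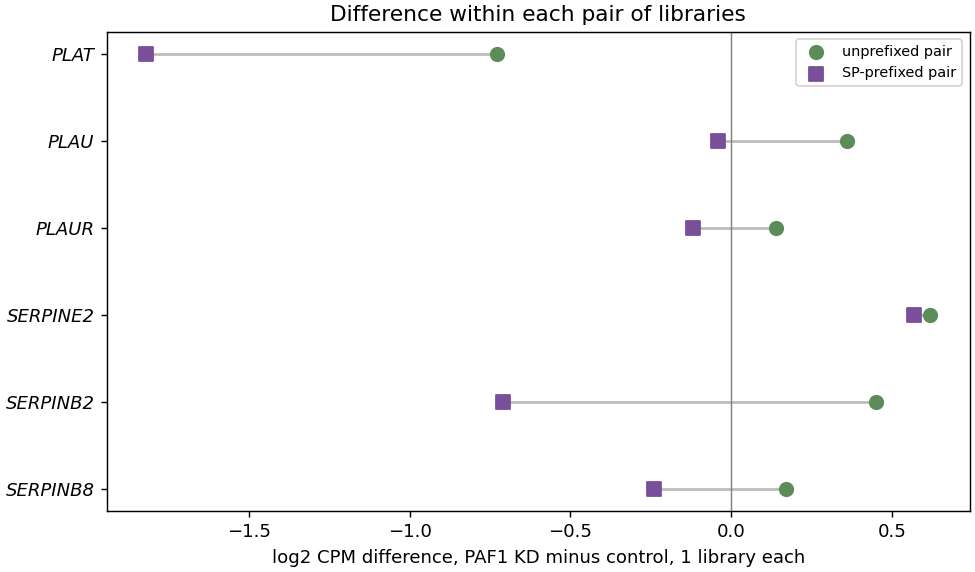
Log2 CPM difference (x axis) of each member between the knockdown-labelled library and the control, for the unprefixed pair (circles) and the prefixed pair (squares), 1 library each and with no test. PLAT is negative and SERPINE2 positive in both pairs, while the other 4 members lie on opposite sides of 0.

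Differences of opposite sign in the pairs were found for 4 of the 6 members, PLAU, PLAUR, SERPINB2 and SERPINB8, and for 37.7% of all genes. In each of these 4 the unprefixed pair was positive and the prefixed pair negative. The pairs use different libraries on both sides. The prefixed control was above the unprefixed control for all 6 members, by 0.17 (PLAUR) to 0.88 (SERPINB2) on the log2 scale. The share of all genes with this direction was not counted, so it is not shown to be particular to the members. Between the knockdown-labelled libraries, prefixed minus unprefixed was -0.20 for PLAU, -0.10 for PLAUR, -0.28 for SERPINB2 and -0.22 for SERPINB8. With 1 library per cell of that layout, the difference between pairs could not be tested.

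The other inhibitors and the receptors that clear protease and serpin complexes had 11 of 14 genes tested. Of these, 3 were positive and 8 negative, with a median log2 fold change of -0.42, against -0.01 over all genes tested and 48.3% of those positive. None passed with or without the prefix term. LRP1, the endocytic receptor that takes up these complexes, had the highest mean CPM of the list. LRP1 had 204 and 311 CPM in controls and then 166 and 176 CPM in the knockdown-labelled libraries (log2 fold change -0.59 ± 0.20, SE; edgeR, adjusted p = 0.37), and it passed without the unprefixed control (-0.85 ± 0.12, adjusted p = 0.00561). SERPINI1, neuroserpin, an inhibitor of tPA in brain, had 2.64 and 2.29 CPM against 0.984 and 1.32 CPM (-1.09 ± 0.31; edgeR, adjusted p = 0.298). SERPINI1 was named after its values were seen. Within pairs, the list median stood at -0.08 (unprefixed) and -0.49 (prefixed).

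Of other serine proteases that can act in this system, 5 of 9 were tested, and all 5 values were negative (median log2 fold change -0.36). With the prefix term 2 of the 5 passed the test as lower, TMPRSS4 and PRSS8, as 1.41% of all genes did. TMPRSS4, a membrane-anchored protease reported to activate pro-urokinase, had 128 and 98.4 CPM in controls and then 67.2 and 39.6 CPM in the knockdown-labelled libraries. It fell by 1.12 ± 0.15 on the log2 scale in that fit (SE; edgeR, adjusted p = 0.0105) and had adjusted p = 0.23 without the term. PRSS8, prostasin, had 56.5 and 81.9 CPM against 37.4 and 34.8 CPM and fell by 0.92 ± 0.18 (edgeR, prefix term included, adjusted p = 0.0347, and 0.197 without it). ST14, the epithelial protease matriptase, which activates pro-urokinase in biochemical assays, had 324 and 286 CPM against 252 and 223 CPM (-0.36 ± 0.13; edgeR, adjusted p = 0.397). ST14 was named after its values were seen. KLKB1, F11 and FAP had 0 counts in all libraries.

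Plasminogen mRNA was near 0. PLG, a plasma protein made by liver, had 0 to 2 counts per library, under a floor of 3 counts. Of the plasminogen-binding and tPA-binding proteins, 8 of the 9 genes listed with PLG were tested, with 5 positive and 3 negative log2 fold changes, a median of 0.11 and none past the test in either fit. KRT8, a keratin that binds plasminogen when exposed at the surface of carcinoma cells, had 1743 and 1633 CPM against 1483 and 1634 CPM. The heterotetramer of ANXA2 and S100A10, which binds tPA and plasminogen at the surface, was chosen after values were seen. ANXA2 had 1628 and 1473 CPM in controls and then 1549 and 1524 CPM in the knockdown-labelled libraries (-0.01 ± 0.14; edgeR, adjusted p = 0.982). S100A10 had 708 and 563 CPM against 717 and 610.3 CPM (0.06 ± 0.16; edgeR, adjusted p = 0.918). Per length, S100A10 mRNA stood at 1498 to 1931 TPM and ANXA2 at 685 to 766 TPM, both far above the 19.6 to 69.8 TPM of PLAT.

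Membrane partners of uPAR, integrins and EGFR among them, had 8 of 12 genes tested, 4 positive and 4 negative, with a median of 0.00 and none past the test in either fit. ITGB1, the integrin beta 1 chain, had 1829 and 1857 CPM in controls and then 2231 and 1845 CPM in the knockdown-labelled libraries (0.15 ± 0.16, SE; edgeR, adjusted p = 0.767). Of 16 genes for plasmin substrates and proteins set free by plasmin, 10 were tested, 6 positive and 4 negative, with a median of 0.36. In this list 6 genes had both knockdown-labelled libraries above both controls, against 22.1% of all genes, and none had both below. THBS1, thrombospondin 1, a matrix glycoprotein that binds plasmin and its activators, was the gene of this list that passed with the prefix term (1.37 ± 0.16, SE; edgeR, adjusted p = 0.00783), as 0.542% of all genes did in this direction. Its TPM was 109.6 and 104 in the controls and 233 and 326 in the knockdown-labelled libraries. Both knockdown-labelled libraries were above both controls.

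The other clade B serpins, relatives of SERPINB2 and SERPINB8, had 6 of 11 genes tested, and all 6 values were negative (median log2 fold change -0.37, and -0.30 and -0.44 in the pairs). In 5 of the 6 both knockdown-labelled libraries were below both controls, against 22.6% of all genes. SERPINB13, a serpin of squamous epithelium that inhibits lysosomal cathepsins, had 2.38 and 3.94 CPM in controls and then 0.463 and 0.896 CPM in the knockdown-labelled libraries. It fell by 2.21 ± 0.32 on the log2 scale with the prefix term (SE; edgeR, adjusted p = 0.0135) and had adjusted p = 0.195 without it. Its counts were 54 and 79 against 8 and 17. SERPINB1, SERPINB5, SERPINB6 and SERPINB9 had 150.4 to 237 CPM per library, with log2 fold changes of -0.44 to -0.17 that did not pass. These 4 were named after values were seen. SERPINB11 and SERPINB12 had 0 counts in all libraries, and SERPINB3 and SERPINB4, which are near-identical copies that can share reads, had at most 12.

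FURIN, the protease that SERPINB8 inhibits, had 120.4 and 101 CPM in controls and then 131 and 138 CPM in the knockdown-labelled libraries (0.28 ± 0.14, SE; edgeR, adjusted p = 0.489). All 4 genes of its list were tested, all were positive (median 0.22) and none passed in either fit. Of 12 AP-1 and ETS factors, all tested, 3 were positive and 9 negative, with a median of -0.28 that was 0.22 in the unprefixed and -0.45 in the prefixed pair. FOS, an immediate early AP-1 subunit, was the factor that passed with the prefix term. FOS had 28.2 and 41.6 CPM in controls and then 15.2 and 9.85 CPM in the knockdown-labelled libraries, falling by 1.48 ± 0.25 (SE; edgeR, prefix term included, adjusted p = 0.0231, and 0.184 without it). FOSL1, another AP-1 subunit, had 122 and 162 CPM against 165 and 142 CPM (0.11 ± 0.17; edgeR, adjusted p = 0.842). FOSL1 was named after its values were seen. The order of its libraries, unprefixed control lowest and unprefixed knockdown-labelled library highest, was that of PLAU. JUN of the same list had this order too (61.7 and 74.7 CPM in controls, 85 and 67.9 CPM in the knockdown-labelled libraries). JUN was likewise named after its values were seen. How many of all genes share the order was not counted, and a link to PLAU was not tested.

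**Figure D4:**
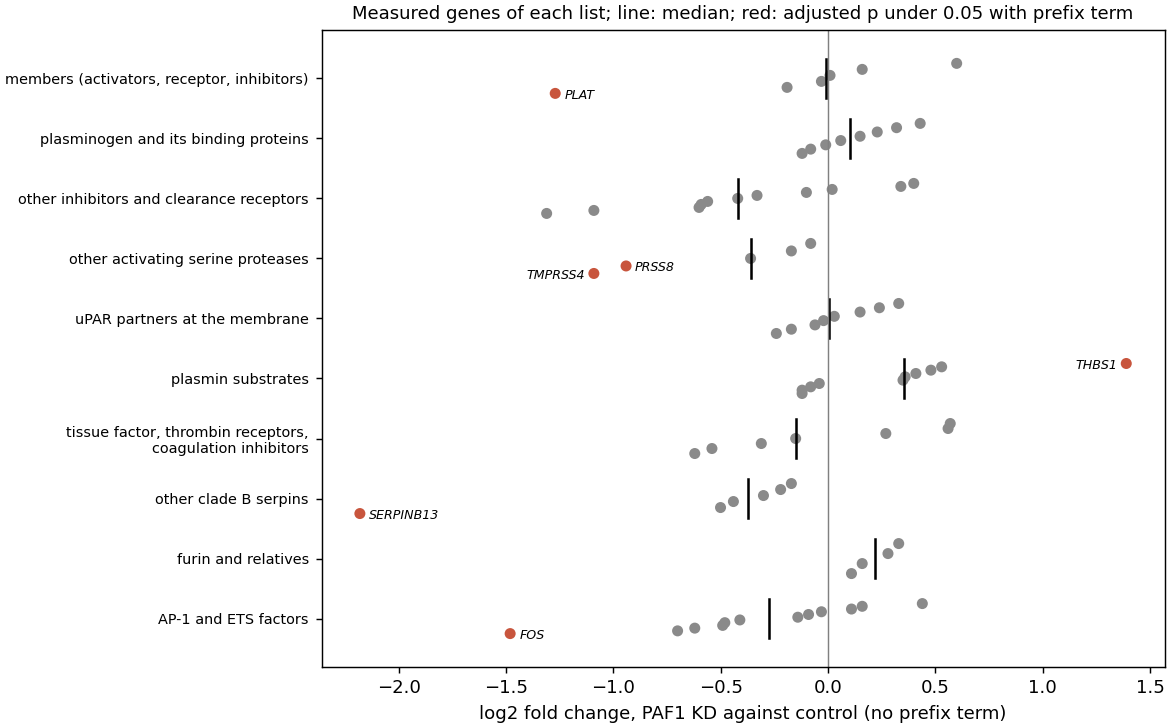
edgeR log2 fold changes without the prefix term (x axis) of the tested genes of the 6 members and of 9 related lists; each dot is a gene, the black line is the list median, and red dots passed with the prefix term. PLAT, TMPRSS4, PRSS8, SERPINB13 and FOS are the red dots below 0 and THBS1 is the one above 0.

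Of the 97 related genes, 71 were tested. The edgeR fit without the prefix term passed 0 of them, and the fit with the prefix term 5, of which 1 was higher and 4 lower. Over all genes this fit called 1.95%, with 0.542% higher and 1.41% lower. DESeq2, which called 1.4% of all genes, called the same 5 genes and PLAT. Likeness of pattern was measured as the root mean square distance between log2 CPM values centred on the mean of the 4 libraries, over 11281 genes with a mean of at least 5 CPM. Nearest to PLAT were TMEM47 (0.0541), UNC5A (0.073) and FNDC11 (0.0888), and 7 genes in all lay within 0.1. UNC5A, a netrin receptor, had 32.5 and 47.3 CPM in controls and then 22 and 14.5 CPM in the knockdown-labelled libraries. Nearest to SERPINE2 were ACSS1 (0.0246), CRIM1 (0.0382) and CXCL5 (0.0453), with 38 genes within 0.1. Nearest to SERPINB2 were RELB (0.0296), ZDBF2 (0.0434) and TLNRD1 (0.0623), with 15 genes within 0.1, and RELB, a subunit of NF-kB, had 15.2 and 27.9 CPM against 21.6 and 17.8 CPM. PLAU was nearest to PRELID2, PRKAB2 and RBIS, PLAUR to TMCO3, NCKAP1 and DMXL1, and SERPINB8 to HOOK3, TMEM17 and NRBF2. Within 0.1 of these 3 members lay 728, 2186 and 1311 genes. With 4 libraries, such likeness is a description.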

How the data were processed

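RNA-seq of SW1990 cells, labelled as side population, was deposited as 1 table of raw, unnormalized counts by gene and lane, per the file headers. FastQC, HISAT2 and featureCounts were used, per the submitters' processing notes, which name both hg19 and GRCh38. Versions, roles and the strand setting were not given in the sources used here. Of 60483 identifiers, 56729 overlap their GENCODE release 29 span on GRCh38, and 56321 had a symbol. All 37 mitochondrial genes had 0 counts.

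Lanes were summed, giving 2 libraries per group and 17234973 to 22348416 counts each. No label ties libraries to different cultures or clones; p-values thus reflect only how these 4 libraries scatter, and that scatter may be technical. The deposited counts went into edgeR 4.0.16 under R 4.3.3 (quasi-likelihood, TMM, expression filter with a minimum count of 10, Benjamini-Hochberg at 0.05, 2 residual degrees of freedom). Standard errors and 95% intervals come from the F statistics. Another fit had a term for the name prefix (1 residual degree of freedom). CPM used TMM-scaled sizes, log2 CPM a prior count of 2, and TPM the gene length of the table. Counting intervals are exact Poisson and cover counting error only.

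The members and lists were chosen with earlier results of these data known. Named beside the members were PAF1, list genes past a test (up to 4), or else the most abundant list gene, and 3 genes of like pattern per member; 1 further gene of the rule is not reported here. Alternatives were DESeq2 1.42.0, limma-voom (limma 3.58.1), other scalings and filters, single lanes and leaving out each library. The edgeR step was tested on simulated data: of 100 genes changed by 1 on the log2 scale it recovered 98 without and 99 with the prefix term. The simulation had 1 fixed scatter for all genes and changed only genes well above the count filter. The run without the prefix term had no prefix effect. These settings differ from the data, so the shares do not measure which changes could be found in these libraries. Summaries ran on scipy 1.17.1, numpy 2.4.6 and pandas 2.3.3 under Python 3.11.15, and plots on matplotlib 3.10.9.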

Additional observations from a re-analysis of the deposited data

Results flagged for a closer look

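SERPINB2 drew attention because its 2 pairs of libraries moved in opposite directions, each by more than counting error. The log2 difference between the knockdown-labelled library and the control stood at 0.45 for the unprefixed pair and at -0.71 for the prefixed one. The difference between the pairs was not tested, since each pair has 1 library per group. The prefixed control, at 268 CPM, was the highest library, and the unprefixed control, at 145 CPM, the lowest.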

How the results depend on the processing

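No paired analysis was possible because the columns carry no library number, so the numbers in the titles could not serve as a block; the prefix term is a block by library name, which the labels do not give as a pairing. PLAT kept a negative value under all 14 alternatives and SERPINE2 and PLAU a positive one. PLAT passed with the prefix term (-1.27, adjusted p = 0.0263) and in DESeq2 (-1.26, 0.000186). Leaving out each library gave -1.57 to -0.98 for PLAT (adjusted p over all alternatives 0.000186 to 0.999), 0.42 to 0.80 for SERPINE2 (0.0755 to 0.999), 0.06 to 0.27 for PLAU, -0.06 to 0.09 for PLAUR, -0.55 to 0.32 for SERPINB2 and -0.14 to 0.08 for SERPINB8, which was 0.05 with lane 2 alone. The count over all genes was 320 with the prefix term, 236 in DESeq2 and 0 to 1316 without 1 library (1316 without the unprefixed, 208 without the prefixed control, 0 without either knockdown-labelled library). Among the related genes these were 5, 5 and 0 to 13. Scalings, filters and single lanes called 0 genes in edgeR, as did limma-voom. The median of all genes lay between -0.02 and 0.01 on the log2 scale under every setting, leaving out each library included. CPM in place of TPM moved no group ratio beyond the spread of the controls. This is no check of the ratios, because the length of a gene cancels from its own ratio. With 1 library left in a group, that library is assumed to vary like the other group. Each member had at least 317 counts in every library, and 2 libraries per group limit the precision.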

Other observations

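Tissue factor, the cell-surface starter of coagulation, was read at 1754 to 2516 TPM. F3 had 1247 and 1762 CPM in the controls (unprefixed first) and 1475 and 1236 CPM in the knockdown-labelled libraries, with -0.15 ± 0.20 as the log2 fold change (SE, 2 libraries per group; edgeR, adjusted p = 0.813). Of the 10 genes for tissue factor, thrombin receptors and coagulation inhibitors, 7 were tested, 3 positive and 4 negative, with a median of -0.15, and none passed with or without the prefix term. Within pairs, this median stood at 0.24 (unprefixed) and -0.51 (prefixed).

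The following genes of that list were chosen after their values were seen. F2R, which encodes the thrombin receptor PAR1, had 19.1 and 21.1 CPM in controls and then 32.7 and 26.9 CPM in the knockdown-labelled libraries (0.57 ± 0.17; edgeR, adjusted p = 0.308). PROCR, the endothelial protein C receptor, had 13.1 and 14.7 CPM against 18.5 and 22.3 CPM (0.56 ± 0.18; edgeR, adjusted p = 0.339). THBD, thrombomodulin, was highest in the prefixed control at 356 CPM, with 165 to 185 CPM elsewhere, and did not pass in edgeR (-0.54 ± 0.32, adjusted p = 0.558, and 0.415 with the prefix term). Without the unprefixed control it was -0.98 ± 0.12 (edgeR, adjusted p = 0.00331), a fit that called 7.77% of all genes.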
